A study of Homo sapiens with 3 samples.

Results

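MYC, MYCL, MAX, MXD1, MXD3, MXD4, MXI1, MNT, MLX and MGA are the 10 genes of the MYC and MAX network described here. They were chosen by name from the roles of their proteins, by a rule that uses no measured value, although earlier results of these data were known. They make up 10 of the 33423 genes listed in at least 1 of the count tables. All 10 had a row in the table of LNCaP–ENZ168 (24350 genes), of VCaP parental (27348 genes) and of VCaP–ENZ48 (28928 genes). MYCN, the remaining MYC family gene, has no row in the tables used here.

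RNA was counted cell by cell with Drop-seq, a droplet method that tags each mRNA molecule with its cell's barcode and a unique molecular identifier (UMI), so that a UMI count is a count of molecules. LNCaP and VCaP are prostate cancer cell lines labelled sensitive to enzalutamide (ENZ), a drug used to treat prostate cancer, and both grown in medium with 10% serum, RPMI for LNCaP and DMEM for VCaP. The LNCaP library (LNCaP–ENZ168) came from a culture kept in 10 µM ENZ for 168 h, and the VCaP libraries from cultures kept for 48 h in either 10 µM ENZ (VCaP–ENZ48) or the 0.1% DMSO vehicle (VCaP parental). Each group was 1 library, LNCaP without ENZ is not analysed here, and no p-value was computed: intervals in the text are 95% intervals for counting error only.

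MYC is a basic helix-loop-helix transcription factor that drives growth, ribosome production and cell division, and that is often amplified or overexpressed in prostate cancer. MYC binds DNA only as a dimer with MAX, mainly at the E-box CACGTG, and MAX also pairs with the MXD proteins and MNT, which occupy the same sites and recruit SIN3 and histone deacetylases to repress transcription. MLX pairs with the glucose-sensing Mondo proteins and with some MXD proteins, and MGA joins MAX in a repressive Polycomb complex.

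The E-box was looked for in the promoters of the network genes themselves, since members of the network can be bound by it. RefSeq promoters of 300 bases, 250 before and 50 after a transcription start on GRCh38.p14, were given for 9 of the 10 genes, with 14 promoters in all. The 6 letters CACGTG, which read the same on both strands, were present in 3 of these 14 promoters, 1 each of MLX, MNT and MXD4, beside 7.26% of 35116 promoters of all genes. Counted by gene, that is 3 of 9 members beside 8.77% of 27305 genes. The windows around these matches are printed 5′ to 3′ on the strand of the gene, with the E-box in capitals, because they mark the network genes whose promoters hold the network's own binding letters. They lie at chr17:42567020-42567071 (MLX, plus strand, 50 bases before the start), chr17:2401218-2401283 (MNT, minus strand, 193 bases before) and chr4:2262312-2262359 (MXD4, minus strand, 238 bases before). Distances are to RefSeq starts, which can differ from the Gencode gene bounds given below. Bases inside those bounds were left out of the windows. A match describes the letters and not binding, which was not measured here.
MLX: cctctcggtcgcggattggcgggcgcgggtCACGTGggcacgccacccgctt
MNT: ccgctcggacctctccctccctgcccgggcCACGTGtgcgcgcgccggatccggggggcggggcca
MXD4: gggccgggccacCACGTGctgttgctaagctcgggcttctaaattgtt
Of these 3 genes, MXD4 was past 1.5-fold between the VCaP libraries, and MLX and MNT were not, with the values given below.

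After filtering, VCaP parental had 997 cells with 19515202 UMIs, VCaP–ENZ48 had 947 with 14301287 and LNCaP–ENZ168 had 944 with 6313283, at median depths of 17817, 11224 and 5389 UMIs per cell. No kept cell barcode was shared between libraries. Barcodes whose last letter was read as N instead of a base made up 859, 820 and 205 of these cells, in the same order, so most VCaP cells but a minority of LNCaP cells carried one. The line labels were checked with ERG, which VCaP expresses from a TMPRSS2 fusion: ERG had 2052 UMIs in VCaP parental, 816 in VCaP–ENZ48 and 0 in LNCaP–ENZ168.

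MYC was the most abundant of the 10 transcripts in every library, at 339.6 CPM (UMIs per 1000000 UMIs of the library) in VCaP parental (95% interval 332 to 348, 6628 UMIs), 480.3 CPM in VCaP–ENZ48 (469 to 492, 6869 UMIs) and 140.02 CPM in LNCaP–ENZ168 (131 to 149.6, 884 UMIs). The 3 intervals did not overlap, and the order from the top was VCaP–ENZ48, VCaP parental and LNCaP–ENZ168. These levels were not divided by transcript length, since each molecule gives 1 tag near its 3′ end. MYCL, a MYC family member better known from small cell lung cancer, was close to absent, with 21 UMIs in VCaP parental, 6 in VCaP–ENZ48 and 14 in LNCaP–ENZ168. That is 1.08, 0.420 and 2.22 CPM, so MYC was nearly the only source of MYC family transcripts among the genes measured. MYC (ENSG00000136997.22) lies on chromosome 8 of GRCh38, from 127735434 to 127742951 on the plus strand, and exons of the long noncoding RNA CASC11 overlap it on the opposite strand. CASC11 had 50, 56 and 8 UMIs in VCaP parental, VCaP–ENZ48 and LNCaP–ENZ168, which is far below the MYC counts.

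**Figure D1:**
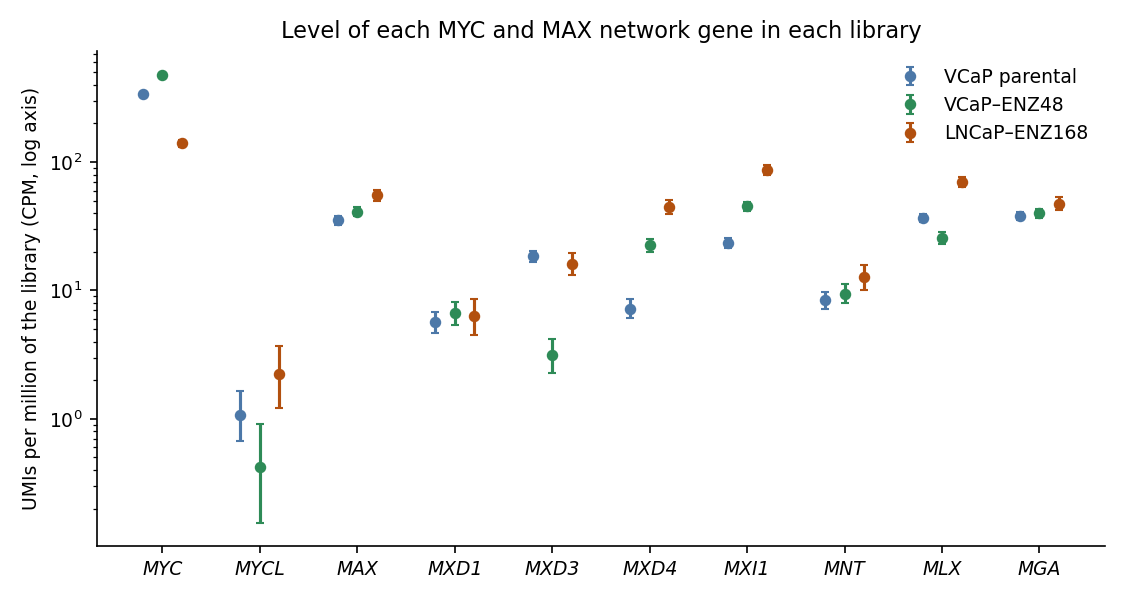
Level of each gene in each library, in CPM on a log axis, with 95% Poisson intervals for counting error; 1 library per group. MYC stands above the other 9 genes in every library, MXD3 is lowest in VCaP–ENZ48, and MXD4 and MXI1 are lowest in VCaP parental and highest in LNCaP–ENZ168.

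MAX, the obligate partner of MYC, was at 35.2 CPM in VCaP parental (32.6 to 37.9), 41.2 in VCaP–ENZ48 (37.9 to 44.6) and 55.0 in LNCaP–ENZ168 (49.3 to 61.1). MAX thus varied less than MYC, and by CPM in the opposite order for LNCaP–ENZ168. Less the median of all genes, the log2 ratio of MAX in LNCaP–ENZ168 over VCaP–ENZ48 was -0.25 (-0.45 to -0.06). That is the same sign as MYC. There were 9.65 MYC UMIs per MAX UMI in VCaP parental, 11.7 in VCaP–ENZ48 and 2.55 in LNCaP–ENZ168. MAX (chromosome 14, 65006174 to 65102695, minus strand) has exons that overlap FNTB and CHURC1-FNTB on the opposite strand, and whether the counting used strand is not given in the sources used here.

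Among the antagonists, MXI1, a MAX partner also known as MXD2, was at 23.4 CPM in VCaP parental (21.3 to 25.7), 45.1 in VCaP–ENZ48 (41.7 to 48.7) and 86.8 in LNCaP–ENZ168 (79.7 to 94.4). MXD4, an MXD protein found in differentiating cells, was at 7.23 CPM (6.08 to 8.52), 22.4 (20.1 to 25.04) and 44.7 (39.6 to 50.2) in the same order. Both genes were lowest in the vehicle library and highest in LNCaP–ENZ168, with no overlap of intervals. MXD3, the MXD family member known for expression in S phase, had the opposite order within VCaP, with 18.4 CPM in VCaP parental (16.5 to 20.4, 359 UMIs) and 3.15 in VCaP–ENZ48 (2.29 to 4.21, 45 UMIs). In LNCaP–ENZ168 MXD3 was at 16.2 CPM (13.2 to 19.6, 102 UMIs), with an interval that overlapped that of VCaP parental. MXD1, first described as MAD and induced in differentiating cells, was the rarest antagonist in VCaP parental and LNCaP–ENZ168, at 5.69 CPM (4.68 to 6.85), 6.64 (5.37 to 8.12) and 6.34 (4.53 to 8.63) in VCaP parental, VCaP–ENZ48 and LNCaP–ENZ168. These intervals of MXD1 overlapped in all 3 libraries. MNT is an antagonist present in most cell types whether they divide or not. It was at 8.40 CPM (7.17 to 9.79), 9.44 (7.91 to 11.2) and 12.7 (10.05 to 15.8) in the same order. The VCaP–ENZ48 interval of MNT overlapped the other intervals, and those of VCaP parental and LNCaP–ENZ168 did not overlap. MXI1 lies on chromosome 10 (110207605 to 110287365, plus strand), MXD4 on chromosome 4 (2247432 to 2262109, minus strand) and MXD3 on chromosome 5 (177301461 to 177312757, minus strand). MXD1 lies on chromosome 2 (69897688 to 69942945, plus strand) and MNT on chromosome 17 (2384073 to 2401104, minus strand). MXD3 shares exon sequence with RAB24 on its own strand and with PRELID1 on the other, MXD1 with SNRNP27 on its own strand and MXD4 with the microRNA gene MIR4800, so reads in these stretches cannot be assigned to 1 gene with certainty.

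MLX, the MAX-like partner of the Mondo proteins, was at 36.8 CPM in VCaP parental (34.2 to 39.6), 25.7 in VCaP–ENZ48 (23.1 to 28.4) and 70.3 in LNCaP–ENZ168 (63.9 to 77.2). MLX lies on chromosome 17 (42567072 to 42573239, plus strand), where exons of PSMC3IP overlap it on the opposite strand. MGA (chromosome 15, 41621134 to 41773081, plus strand), the large scaffold that brings MAX to its Polycomb complex, had the narrowest range of levels after MXD1, at 37.8 CPM (35.1 to 40.6), 39.9 (36.7 to 43.3) and 47.4 (42.1 to 53.0). The Mondo gene MLXIP was at 32.6, 46.0 and 36.4 CPM, and its relative MLXIPL was near 0 at 1.08, 1.05 and 2.22 CPM, so MLXIP carried most Mondo transcripts. TXNIP, the classical Mondo-MLX target that restrains glucose uptake, was at 54.8, 49.6 and 333 CPM, and its relative ARRDC4 at 2.41, 1.89 and 14.9 CPM, in the order VCaP parental, VCaP–ENZ48 and LNCaP–ENZ168. Both targets were highest in LNCaP–ENZ168, the library with the highest MLX. That library differs from the VCaP libraries in line, treatment and medium together, and a link of the targets to MLX or MLXIP was not tested.

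Within a library, the order of the genes after MYC was MGA, MLX, MAX, MXI1, MXD3, MNT, MXD4, MXD1 and MYCL in VCaP parental, where MGA, MLX and MAX did not differ beyond their intervals, nor did MNT and MXD4, nor MXD4 and MXD1. In VCaP–ENZ48 the order was MXI1, MAX, MGA, MLX, MXD4, MNT, MXD1, MXD3 and MYCL. There, MXI1 and MAX, MAX and MGA, MLX and MXD4, and MNT and MXD1 were neighbours with overlapping intervals. In LNCaP–ENZ168 the order was MXI1, MLX, MAX, MGA, MXD4, MXD3, MNT, MXD1 and MYCL, with overlap between MAX and MGA, MGA and MXD4, and MXD3 and MNT. MXI1 was the leading antagonist in each library, whereas the second place went to MXD3 in VCaP parental and to MXD4 in the libraries with ENZ.

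To ask how ENZ in culture went with the network, VCaP–ENZ48 was compared with VCaP parental, the pair that shares a line and a time. Ratios are log2 ratios of CPM less the median of all 10049 genes whose mean reached 5 CPM in the pair, which was itself at 0.013, and a gene was counted as higher or lower at 1.5-fold or more from that median. Of 9 members tested, MXD4 and MXI1 were higher, MXD3 was lower and 6 lay within 1.5-fold, while MYCL was under the minimum. Over all genes tested, 21.0% were higher and 16.9% lower by this rule, so the counts of members are near the background. MXD4 was 3.08-fold higher (log2 1.62, 1.33 to 1.92), above 95.7% of all genes tested. MXI1 was 1.91-fold higher (log2 0.93, 0.76 to 1.11), above 87.2% of genes. MXD3 was 5.90-fold lower (log2 -2.56, -3.04 to -2.11), with only 1.34% of genes below it. MXD4, MXI1 and MXD3 are all antagonists, as are 5 of the 9 members tested, with MXD1 and MNT inside the limit. MYCL, under the minimum on 21 and 6 UMIs in VCaP parental and VCaP–ENZ48, was at log2 -1.37 (-2.97 to -0.02).

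MYC itself was 1.40-fold higher in VCaP–ENZ48 than under vehicle (log2 0.49, 0.44 to 0.54), above 75.5% of genes but inside the 1.5-fold limit. With only the barcodes that end in a base, the MYC ratio was 0.60 and past the limit, and with each of 3 other scalings without centring it ranged from 0.21 to 0.62. MLX was lower by a similar size (log2 -0.54, -0.72 to -0.35), and this value was -0.11 with only the barcodes that end in a base but past the limit, at -0.63, without barcodes above 3 times the median depth. MAX (log2 0.21, 0.05 to 0.37), MXD1 (0.21, -0.20 to 0.62), MNT (0.15, -0.19 to 0.49) and MGA (0.06, -0.10 to 0.22) lay close to the median of all genes, and with TMM factors without centring all 4 had the opposite sign, at -0.06, -0.07, -0.12 and -0.21. MXD4, MXI1 and MXD3 kept their sign with every scaling tried.

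**Figure D2:**
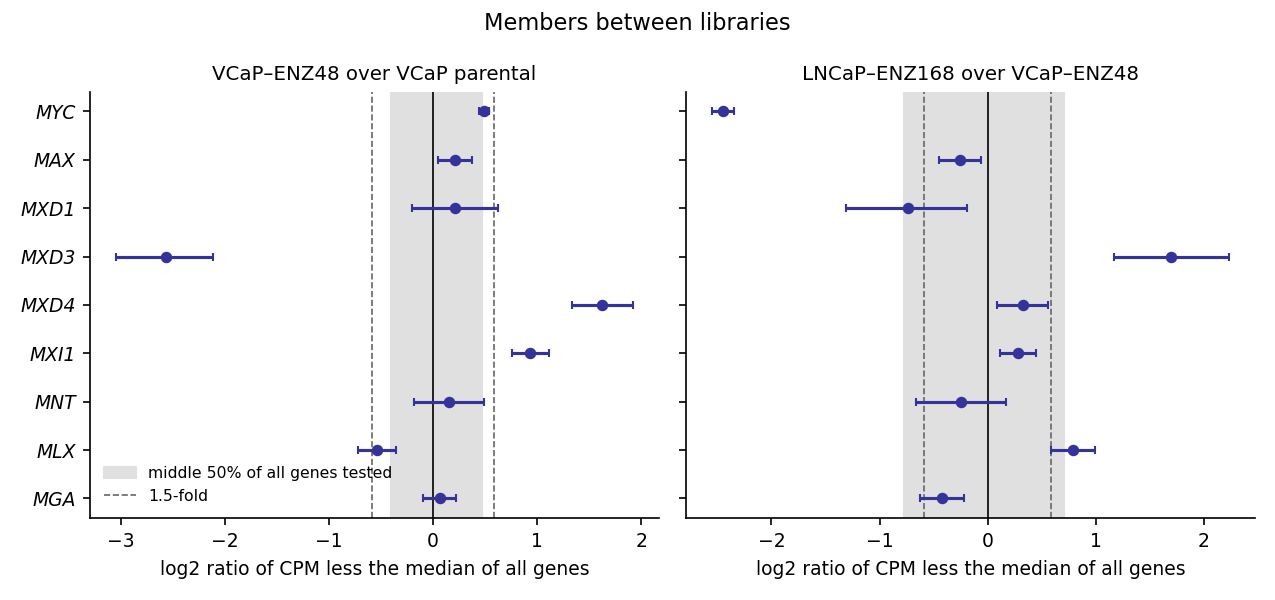
Log2 ratio of CPM of each member tested, less the median of all genes tested, with 95% intervals for counting error, for VCaP–ENZ48 over VCaP parental (left) and LNCaP–ENZ168 over VCaP–ENZ48 (right); the grey band holds the middle 50% of all genes and dashed lines mark 1.5-fold. On the left MXD4 and MXI1 lie above and MXD3 below the dashed lines; on the right MYC lies furthest below, at -2.45, and MXD3 furthest above, at 1.69.

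The antagonists MXD1, MXD3, MXD4, MXI1 and MNT were then summed and set against MYC, a ratio that does not depend on the library total. Their summed UMIs were 1232 in VCaP parental, 1241 in VCaP–ENZ48 and 1052 in LNCaP–ENZ168, or 63.1 CPM (59.7 to 66.8), 86.8 CPM (82.0 to 91.7) and 167 CPM (157 to 177). There were 5.38 MYC UMIs per antagonist UMI in VCaP parental (5.06 to 5.72), 5.54 in VCaP–ENZ48 (5.21 to 5.88) and 0.840 in LNCaP–ENZ168 (0.768 to 0.920). The log2 change from VCaP parental to VCaP–ENZ48 was 0.04 (-0.08 to 0.17), so a change in the summed ratio was not detectable at this depth, although MYC and the antagonist sum each had a higher CPM. This change depended on which antagonists were counted, at 0.30 without MXD4 and 0.17 with MGA added. It was not computed without MXD3, which differed most of the 5 antagonists between the VCaP libraries. MXD3 had 359 of the 1232 antagonist UMIs in VCaP parental and 45 of the 1241 in VCaP–ENZ48, so the summed ratio mixes a lower MXD3 with a higher MXD4 and MXI1.

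The make-up of the antagonist UMIs differed between the VCaP libraries. MXD3 gave 29.1% of antagonist UMIs in VCaP parental (26.6 to 31.8%) but 3.63% under ENZ (2.66 to 4.82%). MXD4 gave 11.4% (9.72 to 13.4%) and 25.9% (23.4 to 28.4%), and MXI1 gave 37.1% (34.4 to 39.9%) and 51.97% (49.2 to 54.8%). The shares of MXD1 and MNT had overlapping intervals, with 9.01% and 13.3% in VCaP parental and 7.66% and 10.9% in VCaP–ENZ48. In LNCaP–ENZ168 the shares of MXI1 and MXD4, 52.1% and 26.8%, were close to those of VCaP–ENZ48, with MXD3 at 9.70%, MNT at 7.60% and MXD1 at 3.80%.

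**Figure D3:**
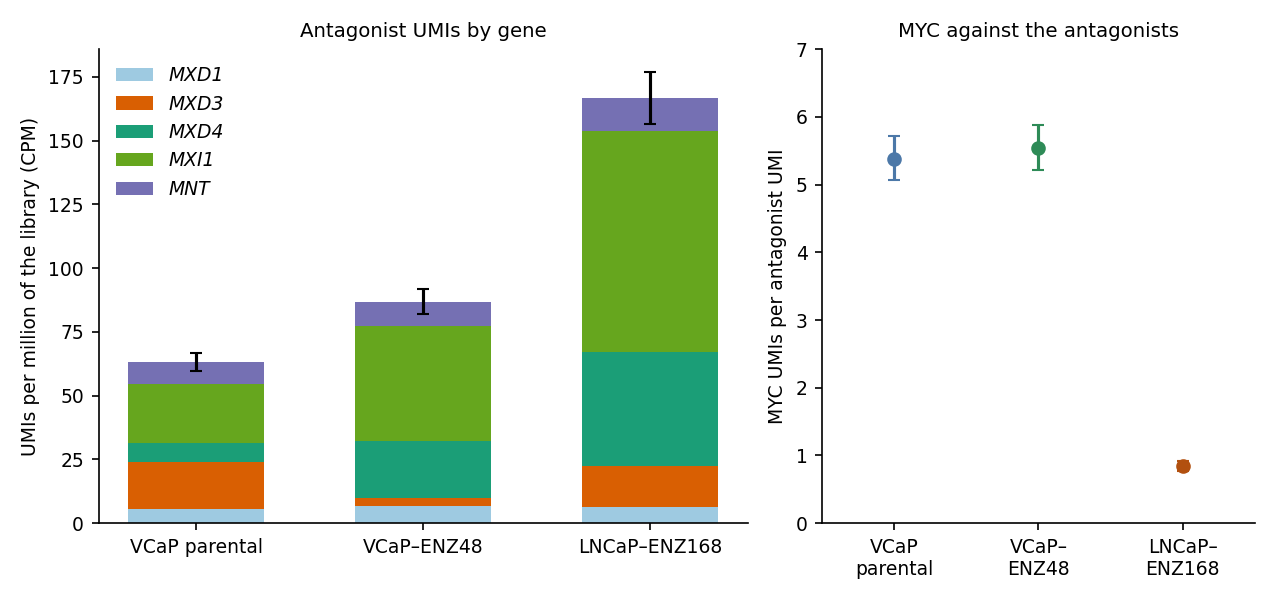
Left, CPM of the 5 antagonists stacked by gene, with the 95% Poisson interval of the sum; right, MYC UMIs per antagonist UMI with 95% intervals. The MXD3 layer nearly disappears from VCaP parental to VCaP–ENZ48 while MXD4 and MXI1 grow, and the ratio on the right is 5.38 and 5.54 in the VCaP libraries against 0.840 in LNCaP–ENZ168.

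LNCaP–ENZ168 was compared with VCaP–ENZ48 to describe the network in both lines under the drug. Line, time in ENZ, culture medium, depth per cell and the share of barcodes ending in N differ together here and cannot be told apart. The median log2 ratio of the 11196 genes tested was 0.67, and values are given relative to it. Among 9 members tested, MXD3 and MLX were higher and MYC and MXD1 lower, against 29.0% of all genes higher and 30.4% lower, so the counts of members are at or below the background. MYC was 5.45-fold lower (log2 -2.45, -2.55 to -2.34), a value with 9.002% of genes below it. MXD3 was 3.23-fold higher (log2 1.69, 1.17 to 2.23) and MLX 1.73-fold higher (log2 0.79, 0.58 to 0.99), and with only the barcodes that end in a base these values were 1.16 and 0.47, the latter inside the limit. MXD1, with 40 and 95 UMIs, was lower by log2 -0.74 (-1.31 to -0.19), but at -0.07 without centring. MXD4 and MXI1 were at 0.33 and 0.28, and without centring at 0.99 and 0.94, past the limit. MAX, MNT and MGA, at -0.25, -0.24 and -0.42, had the opposite sign without centring, at 0.42, 0.42 and 0.25. MYC, MXD3 and MLX kept their sign with every scaling tried. MYC per antagonist UMI was 6.59-fold lower in LNCaP–ENZ168 than in VCaP–ENZ48 (log2 -2.72, -2.88 to -2.56), and ranged from -2.82 to -2.53 over the alternatives.

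Detection was compared in cells thinned to 2000 UMIs each, which left out 1, 0 and 30 cells of LNCaP–ENZ168, VCaP parental and VCaP–ENZ48. A MYC UMI was found in 22.1% of thinned cells in LNCaP–ENZ168 (exact binomial interval 19.4 to 24.8%), 44.2% under vehicle in VCaP (41.1 to 47.4%) and 53.2% in VCaP–ENZ48 (49.9 to 56.5%). Without thinning the shares were 49.7%, 91.0% and 86.8%, so MYC was found in most VCaP cells, and the higher unthinned share in VCaP parental goes with its deeper cells. No cells within these libraries are known to lack the genes, so the share that free RNA would give was not measured. MXI1 was found in 16.0%, 4.31% and 9.71% of thinned cells of LNCaP–ENZ168, VCaP parental and VCaP–ENZ48, and MXD4 in 8.91%, 1.10% and 4.47%. MXD3 was found in 3.18%, 2.51% and 0.763% of thinned cells. For MXI1 and MXD4 the shares follow the order of the CPM across the libraries, whereas the MXD3 intervals of LNCaP–ENZ168 and VCaP parental overlap on both measures, and the shares are low enough that most thinned cells held no UMI of any of them. MYCL was found in 4, 1 and 0 thinned cells. For 0 of 917, 3 counts of the total are 0.327% of cells, and the exact binomial interval reaches 0.401% of cells at this depth. Without thinning, MYCL was found in 14, 19 and 6 cells.

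The ratio of variance to mean of MYC UMIs per thinned cell was largest in VCaP–ENZ48, which also had the highest mean. The mean was 0.265 MYC UMIs per cell in LNCaP–ENZ168, 0.653 in VCaP parental and 0.927 in VCaP–ENZ48. The variance was 1.18, 1.19 and 1.501 times the mean, where counting alone gives a value near 1. This ratio grows with the mean when relative variation between cells is equal. It therefore does not rank the libraries by that variation. Cells with 5 or more MYC UMIs were rare: LNCaP–ENZ168 and VCaP parental each had 1 cell with 5 and none above, whereas VCaP–ENZ48 had 10 cells with 5, 5 cells with 6 and 1 cell with 7. Among the other members the ratio of variance to mean lay between 0.947 and 1.24, the upper end being MXD3 in VCaP–ENZ48. Their means were at most 0.180 UMIs per thinned cell, too low for the ratio to be compared with that of MYC.

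**Figure D4:**
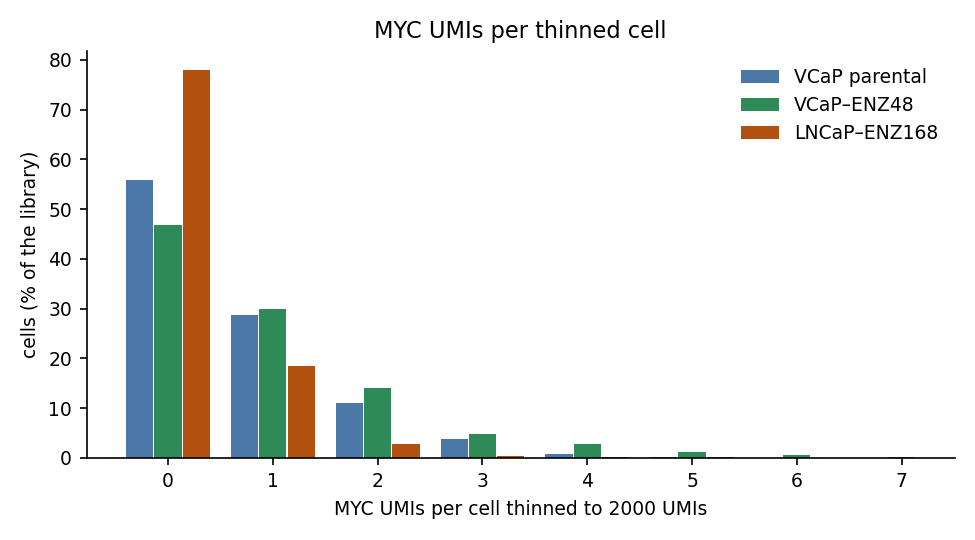
Share of cells, in percent of the library, by number of MYC UMIs after thinning each cell to 2000 UMIs. Cells with 0 MYC UMIs make up 77.9% in LNCaP–ENZ168, 55.8% in VCaP parental and 46.8% in VCaP–ENZ48, and only VCaP–ENZ48 has cells with 6 or 7.

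Within a library, antagonist UMIs were not confined to cells without a MYC UMI. An antagonist UMI was found in 12.2% of cells with a MYC UMI in VCaP parental (9.33 to 15.7%) and in 8.99% of those without (6.75 to 11.7%). In VCaP–ENZ48 the shares were 16.6% (13.4 to 20.2%) and 17.5% (14.01 to 21.4%), and in LNCaP–ENZ168 32.7% (26.4 to 39.5%) and 29.1% (25.9 to 32.5%). The intervals of the paired shares overlapped in each library, so neither exclusion nor joint presence was detectable at this depth.

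Because several of these genes are known to follow the cell cycle, cells were divided by the summed UMIs of 97 S and G2M phase genes, which include none of the 10 members, per 2000 UMIs: low (at most 10), middle (11 to 30) and high (above 30). These classes are ranges of a score and not cell types, and 119, 111 and 34 cells of LNCaP–ENZ168, VCaP parental and VCaP–ENZ48 lay within 2 UMIs of the lower limit and 26, 44 and 6 of the upper. VCaP parental had 323 low, 275 middle and 399 high cells, VCaP–ENZ48 had 861, 40 and 16, and LNCaP–ENZ168 had 684, 166 and 93. The low class thus held 32.4% of VCaP parental and 93.9% of VCaP–ENZ48 cells.

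MXD3 was higher in each higher class, in every library. It was at 2.10 CPM in low, 7.54 in middle and 37.6 in high cells of VCaP parental, a high over low log2 ratio of 4.16 (3.34 to 5.13). In LNCaP–ENZ168 it went from 7.42 to 17.0 to 66.9 CPM (3.17, 2.51 to 3.85), and in VCaP–ENZ48 from 1.83 to 15.9 to 26.3 CPM (3.85, 2.48 to 5.05), the last on 8 UMIs. MXD4 went the other way, from 11.5 to 3.46 CPM between low and high cells of VCaP parental (log2 -1.74, -2.43 to -1.08) and from 51.9 to 20.1 CPM in LNCaP–ENZ168 (-1.37, -2.23 to -0.62). MXI1 went from 31.5 to 15.7 CPM (-1.004, -1.34 to -0.67) and from 96.5 to 56.2 CPM (-0.78, -1.27 to -0.32) in these libraries. MXD3 was thus highest and MXD4 and MXI1 lowest in the same class of cells, in both lines, whereas the high over low interval of MXD1 included 0 in VCaP parental (0.42, -0.28 to 1.15). In VCaP–ENZ48 the high class had only 2 MXD4 and 4 MXI1 UMIs.

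MYC was lower in each higher class in VCaP, from 453 CPM in low (435 to 471) to 382 in middle and 229 in high cells (219 to 240) of VCaP parental, a log2 ratio of -0.98 (-1.07 to -0.89). In VCaP–ENZ48 it went from 489 to 456 to 184 CPM (-1.41, -1.81 to -1.03), with 56 MYC UMIs in the high class, and the log2 ratio was -0.63 or -3.19 with other class limits. In LNCaP–ENZ168 the difference was smaller and within counting error, from 145 to 133 to 120 CPM (-0.27, -0.61 to 0.05). VCaP cells with the most S and G2M phase UMIs therefore had the lowest MYC CPM. MAX, MNT, MLX and MGA had high over low intervals that included 0 in all 3 libraries.

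**Figure D5:**
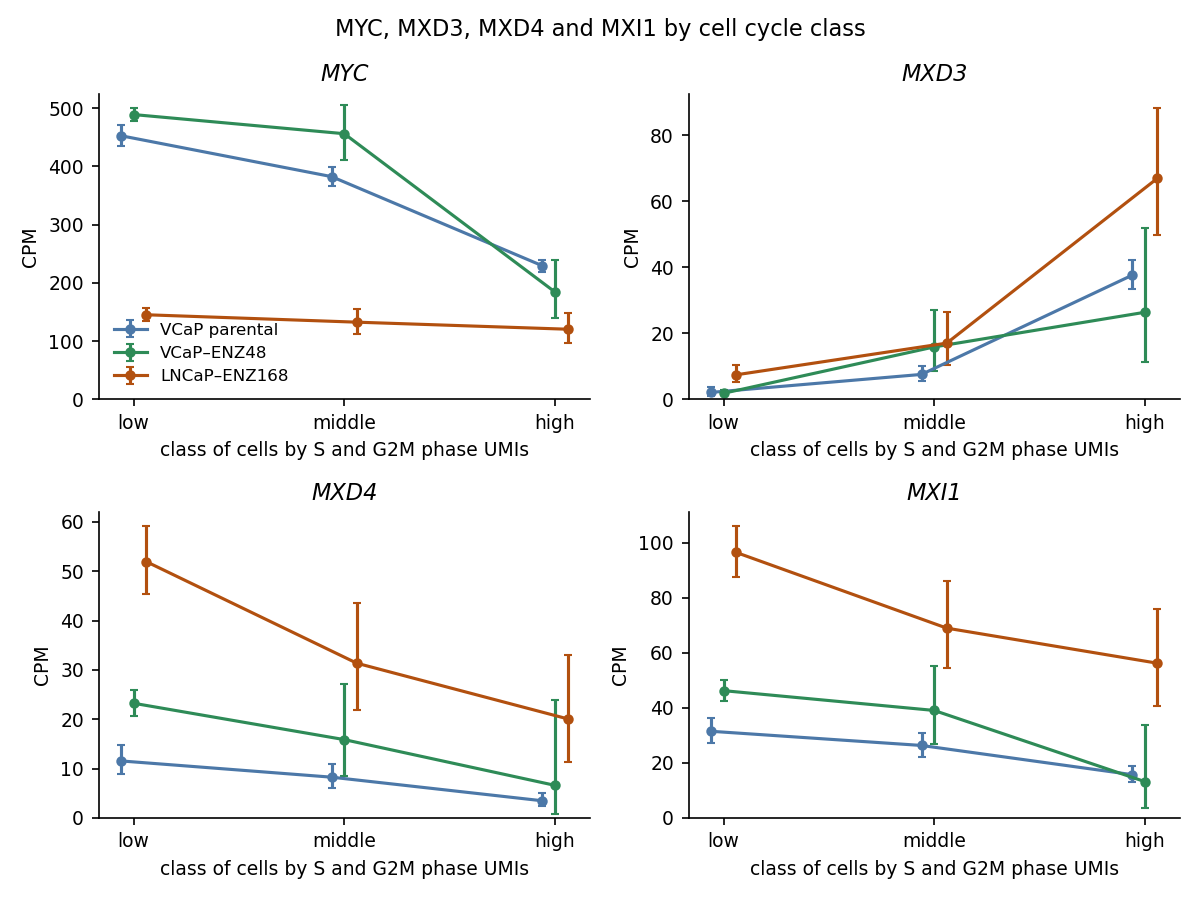
Level (CPM) of MYC, MXD3, MXD4 and MXI1 in cells low, middle and high in S and G2M phase UMIs, with 95% Poisson intervals, for each library; lines join the classes of a library. MXD3 is highest and MXD4 and MXI1 lowest in the high class of every library, though that class of VCaP–ENZ48 has 16 cells, and MYC is lowest there in both VCaP libraries.

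Between the VCaP libraries, the differences of MYC, MXD3, MXD4 and MXI1 were smaller in the low class alone, and that of MLX was not. The MXD1 interval included 0 in the low class (log2 0.49, -0.15 to 1.17, on 87 and 27 UMIs) and over all cells (0.22, -0.19 to 0.63). The low class was not matched for the S and G2M phase genes themselves. These were still lower in its VCaP–ENZ48 cells, with median log2 ratios of -0.74 and -1.05. MYC was at 489 CPM in VCaP–ENZ48 and 453 in VCaP parental, a log2 ratio of 0.11 (0.05 to 0.18) against 0.50 over all cells. MXD3 was at 1.83 and 2.10 CPM (log2 -0.20, -1.25 to 0.94, on 24 and 12 UMIs), so the MXD3 difference over all cells was not detectable in the low class. MXD4 was still higher, at 23.2 against 11.5 CPM (1.01, 0.62 to 1.42), as was MXI1, at 46.2 against 31.5 CPM (0.56, 0.31 to 0.80). MLX was lower, at 25.5 against 39.9 CPM (-0.64, -0.89 to -0.39). Counted against the median of the 9993 genes tested in the low class, MXD4 was the only member past 1.5-fold upwards and MLX the only one downwards, of 8 tested, where 18.9% of all genes were higher and 12.4% lower.

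MYC per antagonist UMI also depended on the class. In VCaP parental it went from 7.69 in low (6.86 to 8.63) to 6.63 in middle and 3.28 in high cells (2.98 to 3.61), and in VCaP–ENZ48 from 5.59 (5.25 to 5.96) to 5.19 and 3.50. LNCaP–ENZ168 had no such gradient beyond its intervals, with 0.831, 0.961 and 0.750. MXD3 gave 304 of the 566 antagonist UMIs in high cells of VCaP parental and 12 of the 337 in low cells. In VCaP–ENZ48 it gave 8 of 16 and 24 of 1149. The ratio by class was not computed without MXD3, so the gradient is not shown for the other antagonists. MXD4 and MXI1 were lower in high cells of VCaP parental, as MYC was. In low cells alone, VCaP–ENZ48 had fewer MYC UMIs per antagonist UMI than VCaP parental, by a log2 change of -0.46 (-0.65 to -0.27), whereas over all cells the change was 0.04. The high class, in which the ratio was lowest in VCaP parental, held 40.02% of its cells and 1.74% of those of VCaP–ENZ48.

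Genes that act with the network were taken from lists and are given by their counts in VCaP–ENZ48 over VCaP parental, beside the 21.0% higher and 16.9% lower of all genes. Of the SIN3 and histone deacetylase corepressor that MXD proteins and MNT recruit, 0 of 11 genes tested were higher and 4 lower, with a median of -0.29. The furthest were SIN3B, a SIN3 scaffold, at 0.33 (-0.07 to 0.73), and RBBP7, a histone-binding subunit, at -1.11 (-1.19 to -1.03). Of the complex of MGA and Polycomb proteins, 1 of 11 was higher and 4 were lower, with a median of -0.35, from CBX3, a heterochromatin reader, at -1.06 to RING1, a ubiquitin ligase, at 1.17. In low cells alone, where 18.9% of all genes were higher and 12.4% lower, 0 of the 11 corepressor genes were higher and 1 lower, and of the 11 genes of the MGA complex 1 was higher and 2 were lower, counts near that background.

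MYC coactivators, which open chromatin for MYC, were nearly flat, with 0 of 15 higher, 1 lower and a median of -0.09. The 1 lower gene was ACTL6A, a chromatin remodelling subunit, at -1.02 (-1.16 to -0.89), and KAT2A, an acetyltransferase, was furthest above at 0.52. Of the factors that set the stability of the MYC protein, 1 of 12 was higher and 4 were lower, with a median of -0.32. AURKA, a mitotic kinase that also appears in the G2M list, was at -3.67 (-3.85 to -3.50), and PPP2R5A, a phosphatase subunit, at 0.70 (0.24 to 1.16). Of the other basic helix-loop-helix factors that can bind CACGTG, 1 of 8 was higher and 1 lower, with a median of 0.03, namely BHLHE41, a circadian repressor, at 1.17 and SREBF2, the sterol regulator, at -0.59.

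MYC target genes were more often lower than higher in VCaP–ENZ48. Of the hallmark MYC targets V1, 79 of 194 genes tested were lower and 7 higher, with a median of -0.49, and of the MYC targets V2, 21 of 54 were lower and 1 higher, with a median of -0.47. The furthest below were CCNA2, the S and G2 phase cyclin, at -3.68 (-3.97 to -3.40, 1851 and 107 UMIs), and PLK1, a mitotic kinase, at -3.64 (-4.04 to -3.27). The furthest above were RPS2, a ribosomal protein, at 1.17 (1.13 to 1.21), and DUSP2, a phosphatase, at 0.98 (0.57 to 1.41). The S and G2M lists, which share 10 genes with V1 and 3 with V2, had 41 of 43 and 52 of 53 genes lower, with medians of -2.09 and -3.23. Within the low class, 56 of 193 V1 targets and 16 of 52 V2 targets were lower against 12.4% of all genes, with medians of -0.37 and -0.43. Of the S and G2M lists, 22 of 34 and 29 of 39 genes were also lower there. Their medians were -0.74 and -1.05, so the low class was not matched for these genes between the libraries. These lists were chosen with results of these libraries known, so their direction is a description.

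In LNCaP–ENZ168 over VCaP–ENZ48, where MYC was far lower, 65 of 194 V1 targets were lower and 30 higher (median -0.23), against 30.4% and 29.0% of all genes. V2 targets were split evenly, with 16 of 55 in each direction and a median of -0.11. TXNIP and ARRDC4 were higher, at 2.08 (1.96 to 2.20) and 2.31 (1.68 to 2.99), and MLXIP was lower, at -1.005 (-1.23 to -0.79).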

How the data were processed

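The tables deposited by the authors hold raw UMI counts, with genes as rows and barcodes as columns, for 1 Drop-seq library per group. They were made with Drop-seq tools 2.3.0, STAR 2.7.3a and Picard 2.18.22 on GRCh38 with Gencode 33, with 1000 cells expected per sample, and each table holds 1000 barcodes. The authors then filtered cells by genes, molecules and mitochondrial share, with thresholds not used here. Coordinates are from a later Gencode release on GRCh38.

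Barcodes were kept from 300 genes and 500 UMIs upwards if no more than 25% of UMIs were mitochondrial; doublets were not identified. UMIs were summed over kept cells per library and scaled to CPM, and a gene without a row in a table was counted as 0. Ratios of CPM used no pseudocount. Intervals are exact Poisson for levels, exact conditional for ratios and Clopper-Pearson for shares, at 95%. Reads of 1 library are not replicates, so intervals and the limit of 3 counts for a count of 0 cover counting error only, and replicate cultures are not analysed here. Cells were thinned without replacement with a fixed seed, and S and G2M lists came from Seurat 5.3.0. Promoters came from RefSeq.

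The members and lists were chosen with earlier results of these data known. Named genes were the 10 members, MLXIP, MLXIPL and MYCN, the genes furthest above and below the median in each list for the VCaP pair, and the 5 genes nearest to MYC. TXNIP, ARRDC4, CASC11, PVT1 and ERG were added as targets, neighbours or checks. Alternatives covered the cell filter, barcodes, weighting of cells, scaling (with TMM from edgeR 4.0.16), pseudocount, centring, expression minimum, fold, antagonists counted, thinning and class limits. Scripts were tested on simulated data. Computations used R 4.3.3 and Python 3.11.15 with scipy 1.17.1, numpy 2.4.6, matplotlib 3.10.9 and pandas 2.3.3.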

Additional observations from a re-analysis of the deposited data

How the results depend on the processing

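No paired analysis was possible because there is 1 library a group, and for the same reason no replicate could be left out. Of 38 recomputed counts of members past 1.5-fold, 35 stayed within 1.5 times the reported count. In LNCaP–ENZ168 over VCaP–ENZ48 the count of 4 became 2 with a minimum of 10 CPM, 2 with a minimum of 20 CPM and 2 at 2-fold; fewer genes were tested with the higher minima. The log2 change in MYC per antagonist UMI between the VCaP libraries, 0.04, became 0.22 with only barcodes ending in a base, 0.17 with MGA added, 0.30 without MXD4 and -0.46 in cells low in S and G2M phase UMIs. In LNCaP–ENZ168 over VCaP–ENZ48, -2.72 became -2.53 with MGA added. The other 17 of 22 values stayed within the interval of the reported one. The cause of these shifts was not tested beyond the antagonists or cells that each setting leaves out, and no setting left out MXD3. Of 300 relative ratios of single members 264 stayed within their interval, as did 233 of 300 levels, and no called ratio reversed. Of 150 shares of thinned cells, 62 left their interval, 49 of them on thinning to other depths, which sets the share by construction, and 7 with only barcodes ending in a base. Of 52 high over low class ratios, 4 left their interval, 3 of them of MYC. TMM factors shifted every log2 ratio by -0.29 in the VCaP pair and -0.53 in LNCaP–ENZ168 over VCaP–ENZ48 before centring. The uncentred scalings were chosen after seeing the data. Depth limits the rarer members most: 3 counts correspond to 0.475 CPM in LNCaP–ENZ168, 0.154 in VCaP parental and 0.210 in VCaP–ENZ48, and the MXD1 and MNT differences between the VCaP libraries were within counting error.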

Other observations

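Over the 3 libraries, 50 of the 8503 genes averaging 10 CPM or more had a centred log2(CPM + 1) pattern within a distance of 0.25 of that of MYC. The 5 nearest were AC008969.1, SLC16A10, an amino acid transporter, PPM1B, a phosphatase, the long noncoding RNA NEAT1 and ZNF503, at distances of 0.059 to 0.11. NEAT1 was at 1512 CPM in VCaP parental, 2099 in VCaP–ENZ48 and 678 in LNCaP–ENZ168. With 3 libraries, of which 2 share a line, this likeness is a description of the levels.

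PVT1, the long noncoding RNA gene next to MYC that is often amplified with it, had a narrower range of levels than MYC. PVT1 was at 31.1 CPM in VCaP parental (28.7 to 33.7), 34.3 in VCaP–ENZ48 (31.3 to 37.4) and 46.3 in LNCaP–ENZ168 (41.1 to 51.9), so by CPM it was highest where MYC was lowest, but less the median of all genes its log2 ratio had the same sign as that of MYC in both comparisons, at 0.13 (-0.05 to 0.30) between the VCaP libraries and -0.23 (-0.45 to -0.02) in LNCaP–ENZ168 over VCaP–ENZ48. Within VCaP parental, MYC was at 289 CPM in the third of cells with the lowest mitochondrial share (276 to 302) and at 383 in the third with the highest (367 to 399), whereas MXD3 was at 24.0 (20.5 to 28.0) and 12.7 (10.04 to 16.0). In VCaP–ENZ48 the MYC values were 500.4 (481 to 520.4) and 421 (400.4 to 443), the opposite order, and in LNCaP–ENZ168 they were 146 (131 to 162) and 140.5 (124 to 158), with overlapping intervals.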
